A study of Homo sapiens with 6 samples.

Results

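The genes described here encode the components of transforming growth factor beta (TGF-beta) and bone morphogenetic protein (BMP) signalling, and their transcripts were compared between MDA-MB-231 cells with and without a hairpin against ZNF148. A list of 46 gene symbols was matched to the row names of the deposited expression table, and all 46 were found, each in 1 row of its own, among 24108 rows. The list holds ligands, receptors, SMADs, antagonists and latent binding proteins, and was divided into a BMP arm of 16 genes, a TGF-beta and activin arm of 19 genes and 11 genes that serve both. The cell line, MDA-MB-231, is a long-established metastatic triple-negative breast cancer line, and the labels call it basal. Both groups were transduced with lentivirus for 48 h and selected in 0.5 µg/mL puromycin for 24 h, so virus and puromycin were common to them. The 3 shControl samples carried a luciferase hairpin in the LKO vector, and the 3 shZnf148 samples carried the hairpin against ZNF148. The cells were early-passage transduced populations rather than clones, and 1 hairpin is listed for each group, so a response to ZNF148 loss and a response to that particular hairpin cannot be told apart.

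Ligands of this family bind paired type I and type II receptor kinases at the cell surface, and the type I receptor phosphorylates receptor SMADs, which enter the nucleus with SMAD4. TGF-beta and activin ligands act mainly through SMAD2 and SMAD3, whereas BMPs act mainly through SMAD1, SMAD5 and SMAD9. Secreted antagonists such as noggin and follistatin hold ligands away from their receptors, latent binding proteins tether TGF-beta in the matrix, and the inhibitory proteins SMAD6 and SMAD7 are feedback inhibitors inside the cell. ID genes are classical targets of BMP signalling. In breast cancer cells TGF-beta is known both for growth arrest and for promoting invasion.

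The knockdown was read first. ZNF148, on chromosome 3 from 125225669 to 125375325 (minus strand of GRCh38), was at 3.72, 4.36 and 4.30 FPKM (sequenced fragments scaled to transcript length and library size) in shControl replicates 1, 2 and 3, and at 0.914, 0.282 and 0.834 FPKM in the shZnf148 samples, all values here and elsewhere standing in the order of replicates 1, 2 and 3. The groups did not overlap, the shZnf148 mean was 16.4% of the shControl mean, and replicate 2 held the least transcript. On the log2(FPKM + 1) scale of the test described further on, the change was -1.63 (SE, standard error, 0.18) with a limma adjusted p of 0.00990, which was 0.0603 without shControl replicate 1 and 0.0568 without shControl replicate 3. The hairpin targets a 21-base sequence that occurs 1 time in the canonical ZNF148 transcript, in the coding part of exon 9 of 9, at chr3:125232398-125232418 on the minus strand of GRCh38. It is the 1 sequence that the study lists for a ZNF148 hairpin and is printed because it defines the perturbation, in capitals throughout since all of it is target.
shZNF148 target: CCCTTGGTGAATGTAAATGAT

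All 8 markers listed for MDA-MB-231 were detected, from 13.2 FPKM for ZEB1 to 1644 FPKM for VIM as means over the 6 samples, and their summed level was 3879 to 3965 FPKM in shControl and 3327 to 3437 FPKM in shZnf148. Of 10 luminal epithelial markers, ESR1 was listed at 0 in every sample and PGR, FOXA1 and CDH1 stayed under 1 FPKM, but KRT8, KRT18, GATA3, EPCAM, ERBB3 and the row that joins KRT17 and KRT19 were detected, and the list summed to 559 to 638 FPKM in shControl and 516 to 584 FPKM in shZnf148. Of 10 fibroblast and endothelial markers, 9 stayed under 1 FPKM, PDGFRB being the exception, and DPT was listed at 0 in all samples. Their summed level was 6.45 to 7.18 FPKM in shControl and 2.60 to 6.23 FPKM in shZnf148. The part of these levels in the results was not tested. The reads behind each value are unknown, and the steps between low values put the depth of the samples at 0.807 to 1.13 times that of shControl replicate 1. The lowest depth, 0.807, was that of shZnf148 replicate 3. Sums of FPKM ran from 497730 to 507312 in shControl and from 469594 to 488173 in shZnf148, without overlap. Nothing in the labels says whether replicates were separate cultures, so the p-values measure the spread between these samples, which may be technical.

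A gene was tested where its mean over all samples reached 1 FPKM, which 35 of the 46 members did. The test was limma on log2(FPKM + 1) with Benjamini-Hochberg adjustment over all 11777 rows tested, and a gene was called at an adjusted p under 0.05 together with a change of more than 1.5-fold. On this scale the change of a gene with low values comes out too small. Of the 35 members, 2 were called higher in shZnf148 and 3 lower. Over all rows tested 5.49% were called, 1.83% as higher and 3.66% as lower. BMP4 and SMAD6 rose, and TGFB2, FST and FSTL3 fell. A further 2 members, TGFBR2 and SMAD3, passed the adjusted p but changed by less than 1.5-fold, where 13.6% of all rows tested passed the adjusted p at any fold. The groups did not overlap in 21 members, 10 of them higher and 11 lower, against 41.0% of all rows tested. At an unadjusted p under 0.05, a threshold used further on for groups of genes with few or no calls, 7 members were higher and 10 lower, and 16.0% of all rows tested were higher and 17.8% lower. Exact permutation of the 6 samples (two-sided) cannot go below p = 0.1 with 3 in each group. Each of the 7 members past the adjusted p reached that value, as does any gene whose groups do not overlap. It therefore adds no support beyond the lack of overlap. In bulk RNA, a smaller number of expressing cells and less transcript per cell cannot be told apart.

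**Figure D1:**
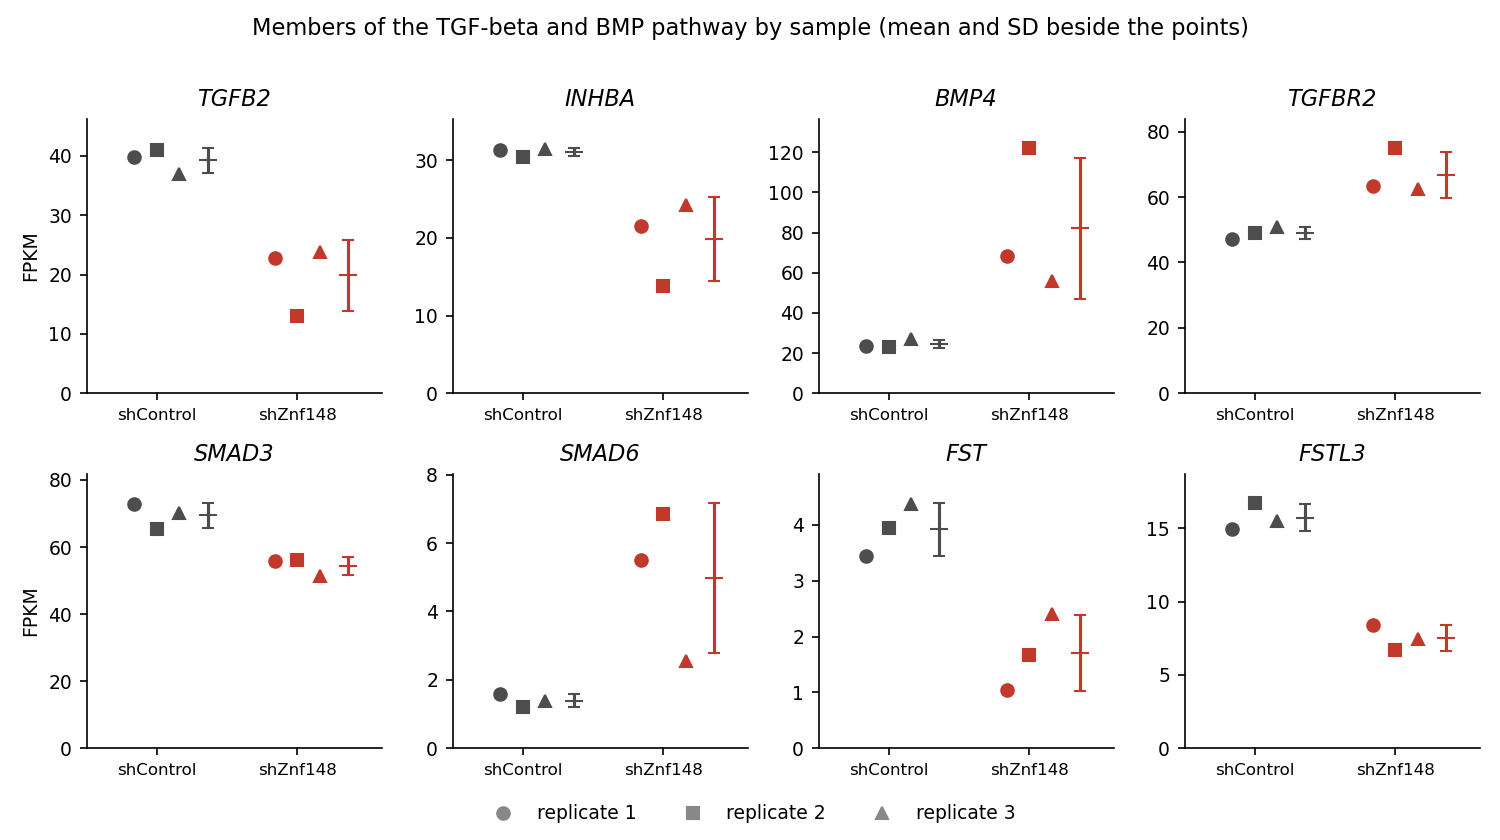
FPKM (linear axis from 0) of the 8 members that were called, that moved by at least 0.58 on the log2 scale or that had an unadjusted p under 0.01, with a point for each of the 6 samples and the mean with its SD beside the points of each group. In every panel the 3 shZnf148 samples lie wholly above or wholly below the 3 shControl samples, and for BMP4, SMAD6, TGFBR2, TGFB2, INHBA and FSTL3 the shZnf148 replicate 2 lies furthest out.

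The 250 bases before the RefSeq transcription start (GRCh38.p14) are printed for the 5 called members, since ZNF148 is a zinc finger protein that binds GC-rich DNA and the promoter is where such a word would be looked for first. Capitals mark CCCTCCC, which was searched together with its reverse complement GGGAGGG. BMP4 lies at chr14:53955051-53955300 on the minus strand, SMAD6 at chr15:66701986-66702235 on the plus strand, TGFB2 at chr1:218345086-218345335 on the plus strand, FST at chr5:53480379-53480628 on the plus strand and FSTL3 at chr19:676142-676391 on the plus strand. Each is written 5′ to 3′ on the strand of its gene, and the BMP4 window lies in an intron of longer transcripts in GENCODE, while the TGFB2 window overlaps exons of the antisense gene TGFB2-AS1.
BMP4: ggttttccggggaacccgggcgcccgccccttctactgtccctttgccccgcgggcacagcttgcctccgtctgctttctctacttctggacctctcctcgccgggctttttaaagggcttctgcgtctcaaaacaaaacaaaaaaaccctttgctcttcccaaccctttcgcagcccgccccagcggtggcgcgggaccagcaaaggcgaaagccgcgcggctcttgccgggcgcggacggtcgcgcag
SMAD6: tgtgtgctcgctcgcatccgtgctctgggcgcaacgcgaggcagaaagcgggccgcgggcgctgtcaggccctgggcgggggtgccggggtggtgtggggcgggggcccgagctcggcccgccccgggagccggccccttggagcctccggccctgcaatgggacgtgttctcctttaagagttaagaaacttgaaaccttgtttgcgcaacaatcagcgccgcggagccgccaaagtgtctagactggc
TGFB2: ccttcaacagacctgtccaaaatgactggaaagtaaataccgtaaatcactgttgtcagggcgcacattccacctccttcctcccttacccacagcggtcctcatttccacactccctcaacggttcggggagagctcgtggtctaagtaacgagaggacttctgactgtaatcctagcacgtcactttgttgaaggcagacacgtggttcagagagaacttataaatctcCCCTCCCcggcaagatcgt
FST: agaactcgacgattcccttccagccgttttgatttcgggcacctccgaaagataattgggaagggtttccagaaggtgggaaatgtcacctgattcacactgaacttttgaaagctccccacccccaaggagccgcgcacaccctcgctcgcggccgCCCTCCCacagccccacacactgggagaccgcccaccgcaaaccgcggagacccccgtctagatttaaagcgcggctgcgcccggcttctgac
FSTL3: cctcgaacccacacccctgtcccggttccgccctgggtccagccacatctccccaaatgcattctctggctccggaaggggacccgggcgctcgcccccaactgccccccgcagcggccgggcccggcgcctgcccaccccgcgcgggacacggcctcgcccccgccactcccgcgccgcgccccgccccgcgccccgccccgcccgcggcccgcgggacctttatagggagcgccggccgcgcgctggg

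The word was present in TGFB2, where it began at position -19 from the start, and in FST at position -93. Neither letter string occurred in this window of BMP4, SMAD6 or FSTL3, which were 63.6%, 68.0% and 80.0% G or C. Of the 33 tested members that matched a promoter, 14 (42.4%) held the word on either strand, against 24.7% of 35116 promoters of the same length. Of the 5 called members 2 (40.0%) held it, so the word did not set the called members apart. The paper describes the ZNF148 motif as runs of C or G, and how well this word stands for it was not tested. The 35116 promoters were not matched to the members by expression or by G and C content, so these shares are not like for like. SKI and NOG had no entry. A match describes letters only, and binding was not measured in these samples. The paper mapped a tagged ZNF148 on the chromatin of MDA-MB-231 cells and shows BMP4 and SMAD6 among its high-scoring sites. The lack of the word in this window is therefore not a lack of binding at these genes.

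Among the ligands, BMP4 rose and TGFB2 fell. BMP4 (chromosome 14 from 53949736 to 53958761, minus strand) encodes a BMP that patterns mesoderm and epithelial organs and signals through SMAD1 and SMAD5. It was at 23.4, 23.1 and 26.9 FPKM in shControl and at 68.2, 122 and 56.0 FPKM in shZnf148. All 3 shZnf148 samples were above every shControl sample, and replicate 2 was the highest. The ratio of the means was 3.36, and the log2 fold change was 1.63 (SE 0.27, 95% interval 0.99 to 2.27, limma adjusted p = 0.0198). Leaving out shControl replicate 1, 2 or 3 took the adjusted p to 0.0884, 0.0626 or 0.0708, with log2 fold changes of 1.59 to 1.70. Without shZnf148 replicate 2 the change was 1.31 and the adjusted p 0.00450.

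TGFB2 (chromosome 1 from 218345336 to 218444619, plus strand) encodes the TGF-beta isoform that depends most on the co-receptor betaglycan for receptor binding. Its reads and those of the overlapping TGFB2-AS1 cannot be told apart if the counting ignored strand, which is not stated. It was at 39.7, 41.0 and 37.0 FPKM in shControl and at 22.8, 13.0 and 23.8 FPKM in shZnf148. All shZnf148 samples were below all shControl samples, with replicate 2 the lowest. The mean was 50.6% of that in shControl, and the log2 fold change was -0.99 (SE 0.21, limma adjusted p = 0.0330). The adjusted p was 0.0588 without shZnf148 replicate 1, and 0.116, 0.0909 and 0.0964 without shControl replicate 1, 2 and 3. Without shZnf148 replicate 2 the log2 fold change was -0.73 and the adjusted p 0.00534.

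INHBA, whose product dimerises to form activin A, was at 31.2, 30.4 and 31.4 FPKM in shControl and at 21.6, 13.7 and 24.2 FPKM in shZnf148. The groups did not overlap, but the log2 fold change of -0.66 (SE 0.19) had an adjusted p of 0.0643 in limma and was not called. It was called only without shZnf148 replicate 3 (-0.81, limma adjusted p = 0.0487). Without shZnf148 replicate 2 it changed by less than 1.5-fold (-0.43, limma adjusted p = 0.0191). TGFB1, the TGF-beta isoform with the highest level here, was at 59.7 ± 4.94 FPKM in shControl against 48.0 ± 6.53 FPKM after knockdown (SD, n = 3 each). Its groups did not overlap, and the log2 fold change of -0.32 had an adjusted p of 0.105 in limma. GDF11, a ligand close to myostatin that signals through SMAD2 and SMAD3, had the opposite sign, at 2.72 ± 0.528 and 3.95 ± 0.464 FPKM (SD, n = 3 each), and its log2 fold change was 0.42 (limma adjusted p = 0.0941). BMP8B, which shares much of its sequence with BMP8A so that reads may be split between them, was at 4.66 ± 0.0995 and 4.30 ± 0.179 FPKM (SD, n = 3 each; limma adjusted p = 0.446). The 95% interval of its log2 fold change was -0.29 to 0.10. BMP4 and TGFB2 were thus the 2 called ligands of the 6 tested.

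Both tested secreted antagonists of activin fell. FSTL3 (chromosome 19 from 676392 to 683392, plus strand), a follistatin-like glycoprotein that binds activin and myostatin, was at 15.0, 16.7 and 15.5 FPKM in shControl and at 8.43, 6.70 and 7.42 FPKM in shZnf148. The lowest shControl sample was well above the highest shZnf148 sample, and FSTL3 had the smallest adjusted p of all members. Its mean was 47.8% of that in shControl, with a log2 fold change of -0.98 (SE 0.10, 95% interval -1.21 to -0.75, limma adjusted p = 0.00931). The adjusted p was 0.0570 without shControl replicate 1 and 0.0539 without shControl replicate 3.

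FST (chromosome 5 from 53480626 to 53487134, plus strand) encodes follistatin, which neutralises activin and, more weakly, some BMPs. It was at 3.44, 3.95 and 4.38 FPKM in shControl and at 1.04, 1.66 and 2.41 FPKM in shZnf148. All shZnf148 samples were lower, and here replicate 1 and not replicate 2 was the lowest. The mean was 43.4% of that in shControl, with a log2 fold change of -0.89 (SE 0.20, limma adjusted p = 0.0356). The call was lost without shZnf148 replicate 1 (adjusted p = 0.0650), without shZnf148 replicate 2 (0.0562) and without shControl replicate 1, 2 or 3 (0.102, 0.0919 and 0.116), and with a pseudocount of 5 FPKM the log2 fold change was -0.42.

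Noggin (NOG), a high-affinity inhibitor of BMP ligands including BMP4, was the only one of the 3 listed BMP antagonists that was tested. It was at 35.9, 27.3 and 32.6 FPKM in shControl and at 26.2, 21.0 and 28.4 FPKM in shZnf148, so that the groups overlapped. The log2 fold change was -0.33 with a 95% interval of -0.67 to 0.00085 and an adjusted p of 0.149 in limma. GREM1 and CHRD, which encode the BMP antagonists gremlin and chordin, were listed at 0 in 5 of the 6 samples each, with the remaining sample at 0.138 and 0.0310 FPKM.

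The latent binding proteins hold TGF-beta in an inactive complex in the matrix, LTBP2 being the one that does not bind the latent ligand itself. None of the 4 was called, and by limma 3 were lower at an unadjusted p under 0.05 and 0 were higher (17.8% and 16.0% of all rows). LTBP1 was at 3.62 ± 0.698 FPKM in shControl and 2.24 ± 0.657 FPKM in shZnf148 (SD, n = 3 each; log2 fold change -0.52, limma adjusted p = 0.103). LTBP4, at the highest level of the 4, was at 42.6 ± 3.68 and 34.1 ± 2.94 FPKM (SD, n = 3 each; log2 fold change -0.32, limma adjusted p = 0.0647). LTBP2 had a log2 fold change of -0.26. For all of these 3 the groups did not overlap. LTBP3 had overlapping groups, with a log2 fold change of 0.01 and a 95% interval of -0.25 to 0.27.

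**Figure D2:**
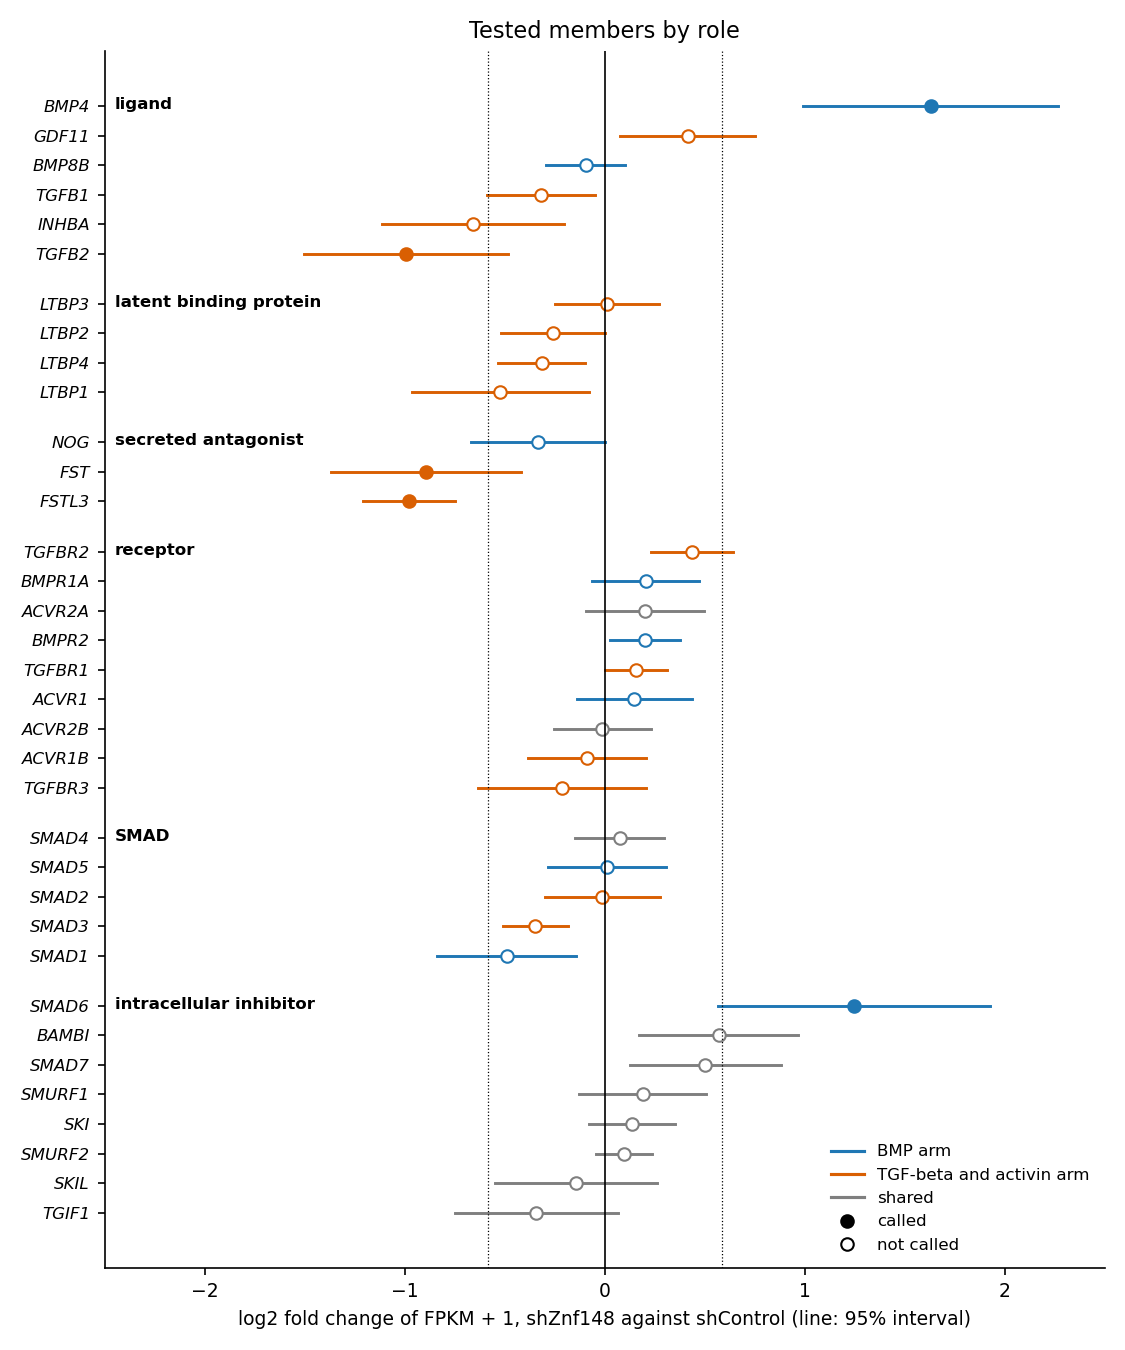
Log2 fold change of FPKM + 1 in shZnf148 against shControl (horizontal axis, linear) for the 35 tested members grouped by role, with lines for the 95% intervals, colours for the arm, filled circles for called members and dotted lines at 1.5-fold. Called members appear among ligands, secreted antagonists and intracellular inhibitors, while all 9 tested receptors and all 5 tested signal-transducing SMADs are open circles.

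Of the 9 tested receptors limma called 0, with 2 higher and 0 lower at an unadjusted p under 0.05 (16.0% and 17.8% of all rows). TGFBR2, the ligand-binding TGF-beta receptor kinase, was at 47.3, 49.0 and 50.9 FPKM in shControl and at 63.3, 75.0 and 62.4 FPKM in shZnf148. All shZnf148 samples were higher, and the log2 fold change was 0.43 (SE 0.09, limma adjusted p = 0.0275), a ratio of means of 1.36. Its adjusted p was 0.109, 0.0792 and 0.0889 without shControl replicate 1, 2 and 3, and 0.0585 without shZnf148 replicate 1. TGFBR1, its signalling partner, was at 17.8 ± 0.0805 and 19.9 ± 0.980 FPKM (SD, n = 3 each). Its groups did not overlap, and the log2 fold change was 0.15 (limma adjusted p = 0.149).

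The betaglycan gene TGFBR3, a co-receptor that presents TGF-beta2, was at 3.42 ± 0.434 and 2.86 ± 0.891 FPKM (SD, n = 3 each) with overlapping groups. BMPR2, the type II receptor for BMPs, was at 10.2 ± 0.508 FPKM in shControl and 11.9 ± 0.473 FPKM in shZnf148 (SD, n = 3 each; log2 fold change 0.20, limma adjusted p = 0.110), without overlap. The type I receptors BMPR1A and ACVR1 had log2 fold changes of 0.20 and 0.15 and overlapping groups. Of the activin receptors, ACVR2A, ACVR2B and ACVR1B had log2 fold changes of 0.20, -0.01 and -0.09, and the 95% intervals of all of these 3 included 0. BMPR1B was listed at 0 in 5 of the 6 samples.

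Of the 5 tested signal-transducing SMADs limma called 0, with 0 higher and 2 lower at an unadjusted p under 0.05 (16.0% and 17.8% of all rows). SMAD3, the TGF-beta and activin SMAD with the highest level of the family here, was at 72.7, 65.5 and 70.1 FPKM in shControl and at 55.8, 56.2 and 51.3 FPKM in shZnf148. The shZnf148 samples were all lower, with a mean at 78.4% of that in shControl and a log2 fold change of -0.35 (SE 0.07, limma adjusted p = 0.0280), which is under 1.5-fold. Without shControl replicate 1, 2 or 3 the adjusted p was 0.112, 0.0581 or 0.104, and it was 0.0646 and 0.0542 without shZnf148 replicate 1 and 3.

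SMAD1, which carries BMP signals, was at 2.64, 3.43 and 3.07 FPKM in shControl and at 1.67, 1.61 and 2.40 FPKM in shZnf148. The groups did not overlap, but its log2 fold change of -0.49 had an adjusted p of 0.0684 in limma. SMAD5, the other BMP SMAD that was tested, stood at 18.4 ± 1.36 and 18.7 ± 3.01 FPKM (SD, n = 3 each), with a 95% interval for the log2 fold change of -0.28 to 0.31. For SMAD2 the interval was -0.30 to 0.27, and for SMAD4, the partner common to both arms, it was -0.15 to 0.30. Changes within these intervals were not detectable here.

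SMAD6 rose among the 8 intracellular inhibitors, and limma called 0 of the other 7, of which 2 were higher and 0 lower at an unadjusted p under 0.05 (16.0% and 17.8% of all rows). SMAD6 (chromosome 15 from 66702236 to 66782849, plus strand) blocks BMP receptors and SMAD1 preferentially and is itself induced by BMPs. It was at 1.58, 1.21 and 1.39 FPKM in shControl and at 5.50, 6.86 and 2.57 FPKM in shZnf148. All shZnf148 samples were higher, with replicate 3 the nearest to shControl. The ratio of the means was 3.57, and the log2 fold change was 1.25 (SE 0.28, limma adjusted p = 0.0378). It was not called without shZnf148 replicate 1 (1.15, adjusted p = 0.0941), without shZnf148 replicate 2 (1.01, adjusted p = 0.0553) or without shControl replicate 1, 2 or 3 (adjusted p = 0.114, 0.0983 and 0.110). The low level of SMAD6 made its log2 fold change depend on the pseudocount, at 1.66 with 0.1 FPKM and 0.62 with 5 FPKM.

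BAMBI, a pseudoreceptor that lacks the kinase domain, was at 7.08, 6.63 and 6.80 FPKM in shControl and at 8.55, 14.1 and 9.89 FPKM in shZnf148. SMAD7, the inhibitor of both arms, was at 6.06, 4.44 and 5.46 FPKM in shControl and at 7.17, 9.92 and 6.92 FPKM in shZnf148. In both genes the shZnf148 samples were all higher and replicate 2 was the highest, with log2 fold changes of 0.57 and 0.50 and limma adjusted p of 0.0656 and 0.0786, so neither passed.

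The ubiquitin ligases SMURF1 and SMURF2, which mark SMADs and receptors for degradation, had log2 fold changes of 0.19 and 0.10. SMURF2, at 85.8 ± 1.87 and 91.8 ± 3.98 FPKM (SD, n = 3 each), had the highest mean level of all members. The nuclear co-repressors SKI and SKIL had log2 fold changes of 0.14 and -0.14. TGIF1, a homeodomain repressor of SMAD2, was uneven within shControl, at 70.9, 44.1 and 65.3 FPKM, and stood at 44.3, 48.1 and 46.5 FPKM in shZnf148, with overlapping groups.

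The 11 members under the level tested were TGFB3, INHBB, INHBE, BMP2, BMP6, BMP7, BMPR1B, ENG, SMAD9, GREM1 and CHRD. BMP2 and BMP7, both BMP ligands, were listed at 0 in all 6 samples, so BMP4 and BMP8B were the only listed BMP ligands above 1 FPKM. The TGF-beta isoform TGFB3 was at 0.301, 0.415 and 0.572 FPKM in shControl and at 0.999, 0.808 and 0.747 FPKM in shZnf148. ENG, the endoglin co-receptor, was at 0.295 ± 0.0318 and 0.472 ± 0.0732 FPKM (SD, n = 3 each), and SMAD9, a further BMP SMAD, at 0.795 ± 0.0828 and 0.529 ± 0.146 FPKM (SD, n = 3 each). The groups did not overlap in these 3 genes. When limma was run without the filter on low values, their adjusted p was 0.0644 for TGFB3, 0.0947 for ENG and 0.148 for SMAD9. BMP6 stayed between 0.266 and 0.368 FPKM, INHBB between 0.0669 and 0.355 FPKM and INHBE, an activin subunit gene, between 0 and 0.286 FPKM.

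By arm, the BMP genes had 2 members called higher and 0 called lower of 9 tested, with a median log2 fold change of 0.15. The shares called over all rows tested were 1.83% higher and 3.66% lower. At an unadjusted p under 0.05 by limma 3 BMP genes were higher and 1 was lower. The shares over all rows tested were then 16.0% and 17.8%. Both pairs of shares also apply to the other arms. The TGF-beta and activin genes had 0 called higher and 3 called lower of 16 tested, with a median of -0.29, and at an unadjusted p under 0.05 by limma 2 were higher and 9 lower. Among the 10 tested genes that serve both arms, limma called 0, 2 being higher and 0 lower at an unadjusted p under 0.05, and the median was 0.12. Over all members the median was -0.01, and over all rows tested 0.01. The difference between the arms was not tested, since genes are not replicates. Each arm pools ligands with their inhibitors. Among the genes called lower, FST and FSTL3 encode activin antagonists, and SMAD6, called higher, encodes a BMP inhibitor. The BMP-binding proteins BMPER, CRIM1 and TWSG1, whose genes were called lower, are in a separate list described below and in neither arm. The counts therefore give no direction of signalling for an arm.

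Genes known to respond to the pathway were taken from hand-written lists. Of 14 tested BMP-SMAD targets, 4 were called higher and 0 lower (1.83% and 3.66% of all rows), with a median log2 fold change of 0.52. By limma 8 were higher and 2 lower at an unadjusted p under 0.05 (16.0% and 17.8% of all rows). The called genes were ID1, ID2 and ID3, which encode inhibitors of basic helix-loop-helix factors, and SMAD6, which is also a member. The paper reports by RT-qPCR that ID1 and ID3 rose on ZNF148 silencing and fell on ZNF148 overexpression. It also shows ZNF148 occupancy at SMAD6 and at the ID genes, less significant at ID1, ID2 and ID4 than at ID3. The list was written with earlier results of these data known, so these calls are no independent read-out of BMP signalling. Whether BMP signalling itself changed was not tested. In all, 4 of the 14 are members, and without them 3 of 10 were called higher, with a median of 0.30. ID2 was at 0.966, 0.887 and 1.10 FPKM in shControl and at 3.17, 5.36 and 3.12 FPKM in shZnf148, a log2 fold change of 1.27 (limma adjusted p = 0.0168). ID1 and ID3 rose by 0.74 and 0.85 on the same scale (limma adjusted p = 0.0264 and 0.0313), and replicate 2 held the highest of the shZnf148 values for all of these 3 ID genes. Each of them lost its call when any 1 shControl replicate was left out, with adjusted p between 0.0554 for ID2 and 0.112 for ID3, and ID1 and ID3 also without shZnf148 replicate 1 (0.0610 and 0.0689). ID4 was listed at 0 in shControl and in shZnf148 replicate 3. Not all targets moved this way, as PPARG and RUNX2 had log2 fold changes of -0.51 and -0.45, with limma adjusted p of 0.0133 and 0.0507, and neither was called.

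Of 33 tested TGF-beta-SMAD targets, 0 were called higher and 5 lower (1.83% and 3.66% of all rows), with a median log2 fold change of -0.14. By limma 5 were higher and 12 lower at an unadjusted p under 0.05 (16.0% and 17.8% of all rows). The called genes were the matricellular genes CTGF and CYR61, the transcription factor BHLHE40 and the basement membrane collagens COL4A1 and COL4A2. CYR61 was at 907, 745 and 830 FPKM in shControl and at 405, 329 and 453 FPKM in shZnf148, a log2 fold change of -1.07 (limma adjusted p = 0.0111). All shZnf148 samples were below all shControl samples. CTGF and CYR61 also respond to YAP, and several genes of the list have other inducers. Of the 33, 6 are members, none of them called in this list, and without them the median was -0.16. CTGF (-1.05), COL4A1 (-0.98), BHLHE40 (-0.74) and COL4A2 (-0.72) completed the 5. Without shControl replicate 1, limma called 0 of the 5, with adjusted p from 0.0661 to 0.124, and without shControl replicate 3 it also called 0, with adjusted p from 0.0559 to 0.102. CTGF was also not called without shControl replicate 2 (0.0974) or shZnf148 replicate 1 (0.0677), nor COL4A1 without shControl replicate 2 (0.0683). Other targets were not called. ANGPTL4, a secreted lipase inhibitor, was at 1.98, 2.01 and 1.62 FPKM in shControl and at 6.95, 33.1 and 5.24 FPKM after knockdown, with a log2 fold change of 2.06 (limma adjusted p = 0.0645), and it was called higher when shZnf148 replicate 2 was left out. TGFBI, PMEPA1 and CDKN1A had log2 fold changes of -0.05, 0.18 and -0.08, and SNAI2 and COL1A2 were higher in every shZnf148 sample with log2 fold changes of 0.52 and 0.86 and limma adjusted p of 0.0657 and 0.0727.

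**Figure D3:**
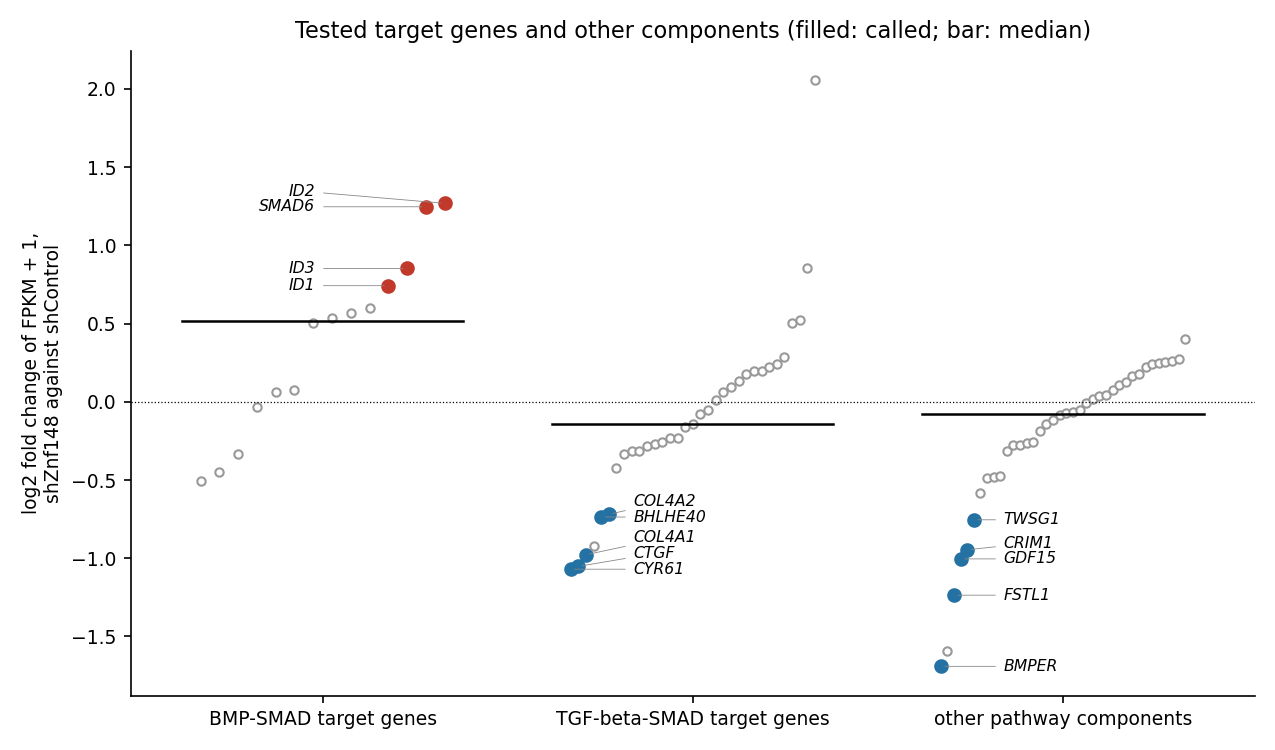
Log2 fold change of FPKM + 1 in shZnf148 against shControl (vertical axis, linear) for the tested genes of 3 hand-written lists, sorted within each list, with filled points for called genes and a bar at the median of each list. The bar of the 14 BMP-SMAD targets is at 0.52 and all called points lie above 0, whereas the bars of the 33 TGF-beta-SMAD targets and the 38 other components are at -0.14 and -0.08 and all called points lie below 0.

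Other components of the pathway were counted from a separate list. Of 38 tested, 0 were called higher and 5 lower (1.83% and 3.66% of all rows), with a median log2 fold change of -0.08. By limma 6 were higher and 11 lower at an unadjusted p under 0.05 (16.0% and 17.8% of all rows). Among the 5 called lower, BMPER, CRIM1 and TWSG1 encode secreted or membrane proteins that bind BMPs. BMPER, a crossveinless-related BMP-binding protein, was at 9.29, 9.95 and 9.05 FPKM in shControl and at 2.59, 1.98 and 2.15 FPKM in shZnf148. Its log2 fold change was -1.69 (SE 0.10, limma adjusted p = 0.00318), and it stayed called with each replicate left out. CRIM1, a transmembrane protein that tethers BMPs, was at 71.0, 80.3 and 74.5 FPKM in shControl and at 43.4, 30.8 and 42.8 FPKM in shZnf148 (log2 fold change -0.95, limma adjusted p = 0.0157). TWSG1, which modulates BMP binding to chordin, was at 41.2, 43.6 and 44.1 FPKM in shControl and at 29.8, 19.0 and 27.7 FPKM in shZnf148 (log2 fold change -0.75, limma adjusted p = 0.0320).

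The other 2 were GDF15, a distant ligand of the family, at 30.1% of its shControl mean (limma adjusted p = 0.0177), and the row that joins FSTL1 and MIR198, with a log2 fold change of -1.24 (limma adjusted p = 0.0233). Leaving out shControl replicate 1, 2 or 3 took CRIM1, TWSG1, GDF15 and FSTL1 past 0.05, with adjusted p between 0.0546 and 0.104. TWSG1 changed by less than 1.5-fold without shZnf148 replicate 2 (-0.56), and FSTL1 had an adjusted p of 0.0516 without shZnf148 replicate 1. RGMB, a BMP co-receptor, fell just short of the fold threshold, with a log2 fold change of -0.58 and a limma adjusted p of 0.0103. The row that joins AMH and MIR4321 was at 167 FPKM in shControl replicate 3 alone and between 6.24 and 7.29 FPKM in the other 5 samples.

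Because FPKM is scaled to transcript length, the transcript level of a ligand was set beside that of its antagonist in the same sample. Whether other differences between genes were corrected is not known, and transcript is not protein. These ratios were chosen after the values were seen and are given without a test. The ratio of BMP4 to NOG was 0.651, 0.845 and 0.826 in shControl and 2.61, 5.82 and 1.97 in shZnf148 replicates 1, 2 and 3. It was below 1 in every shControl sample and above 1 in every shZnf148 sample. A transcript ratio of 1 marks no balance between the proteins. The groups overlapped for NOG alone and did not overlap for BMP4 alone. The ratio of TGFB2 to TGFB1 was 0.608, 0.723 and 0.647 in shControl and 0.470, 0.240 and 0.577 in shZnf148. The ratio of INHBA to the sum of FST and FSTL3 was 1.70, 1.47 and 1.58 in shControl and 2.28, 1.64 and 2.46 in shZnf148, with overlap between the groups. Mean ratios of TGFBR2 to TGFBR1 were 2.76 in shControl and 3.36 in shZnf148, without overlap. Those of SMAD3 to SMAD2 were 16.2 and 12.8, with overlap.

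The shZnf148 replicates were not alike. Of the 21 members whose groups did not overlap, 13 (61.9%) were furthest from shControl in replicate 2, as were 58.0% of the 4833 such rows in the whole table. Of 20 interferon response genes, 18 were tested and 6 called higher (1.83% of all rows). The summed level of the 20 was 361 to 378 FPKM in shControl and 478, 885 and 492 FPKM in shZnf148. ZNF148 itself was lowest in replicate 2. The part of either in the values of the pathway genes was not tested.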

How the data were processed

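RNA-seq was performed on 3 shControl and 3 shZnf148 samples of MDA-MB-231 cells. FPKM values for all 6 samples were deposited by the authors in 1 table. The paper's methods name Salmon with GRCh38, followed by DESeq2. The submitters' processing notes instead name TopHat2 2.0.14, Cufflinks 2.2.1 and Cuffnorm 2.2.1 with hg18 and hg19, and which of these made the FPKM values is not given in the sources used here. Read counts cannot be taken from FPKM without the transcript lengths, so no count test was run and the precision of low values is unknown.

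The primary analysis used log2(FPKM + 1) in limma 3.58.1 (R 4.3.3) with group as the only term and a mean-variance trend, on rows whose average reached 1 FPKM. Thresholds were an adjusted p of 0.05 and 1.5-fold. Where a listed gene had several rows, the highest was used. The rule for values sample by sample took members that were called, moved by at least 0.58 or had an unadjusted p under 0.01. Those of NOG, SMAD1, SMAD7, BAMBI, TGIF1 and TGFB3 were added after the values were seen. Named list genes were the called ones, the ID genes and a few chosen after their values were seen. Promoters were set for called BMP genes, and the other 3 were added after the values were seen. A gene of the TGF-beta-SMAD list is not reported here and was left out of its counts. The members and lists were chosen with earlier results of these data known. Coordinates come from GENCODE release 44 on GRCh38 by symbol. The fit was also tested on simulated data drawn with the spread of these samples. It called 96.5% of the 200 changed rows and 4 unchanged rows. Changes as small as that of FST, and changes in rows as low as SMAD6, were not simulated. Alternatives covered pseudocount, filter, scaling, variance trend, replicate block, summed rows and left-out replicates. Python 3.11.15 was used for the remaining steps.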

Additional observations from a re-analysis of the deposited data

How the results depend on the processing

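The 5 called members, the 2 that passed the adjusted p alone, INHBA and the called genes of the target and component lists kept their direction in all of up to 15 alternatives each, and 0 reversed. No filter on low values left 1 member called higher and 1 lower. With the replicate number as a block, limma called 1 member higher (BMP4, adjusted p = 0.0490) and 2 lower (FSTL3, 0.0415, and FST, 0.0498), while SMAD6 (0.0635) and TGFB2 (0.0630) were not called. The block also left 1 BMP-SMAD target higher (ID2), 1 TGF-beta-SMAD target higher (COL1A2), and 3 other components lower, and over all rows it called 99 higher and 216 lower against 216 and 431. Same-numbered samples had correlations of 0.00104, -0.0881 and 0.0304 between their deviations from the group means. No effect shared by number was seen. With 3 samples in each group this cannot settle whether the numbers pair the samples. A pseudocount of 0.1 FPKM called 1 TGF-beta-SMAD target higher (ANGPTL4). With 1 replicate left out, members called ranged from 0 to 2 higher and from 0 to 5 lower, BMP-SMAD targets from 0 to 4 higher, TGF-beta-SMAD targets from 0 to 1 higher and from 0 to 6 lower, and other components from 1 to 6 lower. The log2 fold change of ZNF148 was then -1.74 to -1.45, not passing without shControl replicate 1 (adjusted p = 0.0603) or 3 (0.0568). Over all rows these fits, on fewer samples, called 3 higher and 26 lower without shControl replicate 1, 7 and 40 without shControl replicate 3, 76 and 175 without shControl replicate 2, 79 and 232 without shZnf148 replicate 1, 164 and 397 without shZnf148 replicate 2, and 222 and 386 without shZnf148 replicate 3. With a minimum mean of 3 FPKM, ZNF148, FST, ID2 and GDF15 were not tested. With a pseudocount of 5 FPKM 76 rows were called higher and 204 lower, and FST, ID2 and GDF15 fell under 1.5-fold.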
